A study of Homo sapiens with 6 samples.

Results

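Autophagy is the process by which a cell wraps part of its cytoplasm in a double membrane, the autophagosome, and delivers it to the lysosome for digestion. A kinase complex around ULK1 starts the membrane, a lipid kinase complex around BECN1 marks it, ubiquitin-like conjugation enzymes attach small proteins of the ATG8 family to it, and cargo receptors such as SQSTM1 bind the attached ATG8 proteins. The lysosome then breaks down the contents with acid hydrolases, and many of its genes are controlled by the transcription factors TFEB, TFE3 and MITF.

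The genes described here are 45 genes of these steps, chosen by symbol out of the 58884 genes in the count tables. They comprise 25 genes of the autophagy core, 17 lysosomal genes (11 enzymes and 6 other proteins) and the 3 transcription factors. RNA was sequenced from HSC4, an established human oral squamous cell carcinoma cell line, in 3 control libraries and in 3 libraries from cells given 50 µM DAPT for 24 h. DAPT inhibits γ-secretase, the membrane protease that frees the signalling domain of Notch receptors. By the paper's account the controls received the vehicle DMSO, whereas the count files carry the letters GM for them and the series' own description mentions only growth medium, so an effect of the vehicle cannot be told apart from that of DAPT if these cultures had none. All libraries come from this 1 line, and no source says whether they are separate cultures, so the p-values measure only the spread between these libraries.

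Total counts per library lay between 12276313 and 16317672, and 3 counts, taken as the smallest signal, correspond to 0.187 to 0.248 CPM (read counts scaled for library size and composition). The Notch target genes *HES1*, *HES2*, *HES4*, *HEY1* and *NRARP* each fell with DAPT, by log2 values from -2.45 to -0.77 (edgeR, all called). Of 10 markers of squamous epithelium all were detected, with *KRT14* at only 3.17 CPM in the controls, and 8 were lower and 2 higher with DAPT. Among the markers of other cell types, the summed level of the fibroblast genes *COL1A1*, *COL1A2*, *COL3A1*, *LUM* and *DCN* was 546 CPM in control replicate 1 and 49.7 to 57.8 CPM in the other 5 libraries. Without *COL1A1*, the other 4 genes summed to 273 CPM in control replicate 1 and 1.36 to 3.97 CPM in the other 5 libraries. The sum over all 14 markers of other cell types was 561 CPM in that library and 63.0 to 74.5 CPM in the others. Of the 7 that could be tested, the endothelial *CDH5* was higher with DAPT (0.166 to 0.506 CPM in controls, 1.39 to 2.34 CPM with DAPT, edgeR adjusted p = 4.93e-05) and *CD14*, a marker of monocytes, was lower (10.4 to 12.8 CPM and 8.77 to 10.3 CPM, edgeR adjusted p = 0.0444), while *CD3E* and *MS4A1*, which mark lymphocytes, were at 0 in all 6 libraries. The part of such cells in the results was not tested. Control replicate 1 thus stood apart in the fibroblast markers, so the values without it are given beside the results it changes. Over all tested genes, replicate 1 differed most in both groups, by the chi-square of the counts per degree of freedom. Control replicate 1 was at 5.34 and 5.25 from control replicates 2 and 3, which were at 1.57 from each other. DAPT replicate 1 was at 4.07 and 3.89 from DAPT replicates 2 and 3, which were at 1.80 from each other.

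All 45 genes passed the filter on low counts, with between 88 reads (*ULK2*) and 14222 reads (*PSAP*) per library. In the quasi-likelihood test of edgeR, adjusted by the Benjamini-Hochberg method over 15001 genes, 17 of the 45 genes were higher with DAPT and 4 were lower at an adjusted p under 0.05. Among all tested genes, 35.2% were called by the same rule, 17.2% as higher and 18.0% as lower, against 37.8% higher and 8.89% lower of the 45 genes. The changes were modest: called genes moved by 0.16 to 0.67 on the log2 scale, and 0 of the 45 reached a 2-fold change with edgeR, DESeq2 or limma-voom, also at an unadjusted p under 0.05, where 2.37% of all tested genes were called with at least that change (0.600% higher, 1.77% lower). The 3 DAPT libraries lay wholly above the 3 control libraries in 20 genes and wholly below in 5, against 23.6% and 22.7% of all tested genes (46.3% together). Without control replicate 1 the numbers called were 17 higher and 5 lower, where 18.0% and 19.1% of all tested genes were called. With library size alone as the scaling they were 20 and 4, where 23.0% of all tested genes were higher and 14.4% lower. With the replicate number as a block they were 17 and 4, where the shares were 17.1% and 18.2%.

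**Figure D1:**
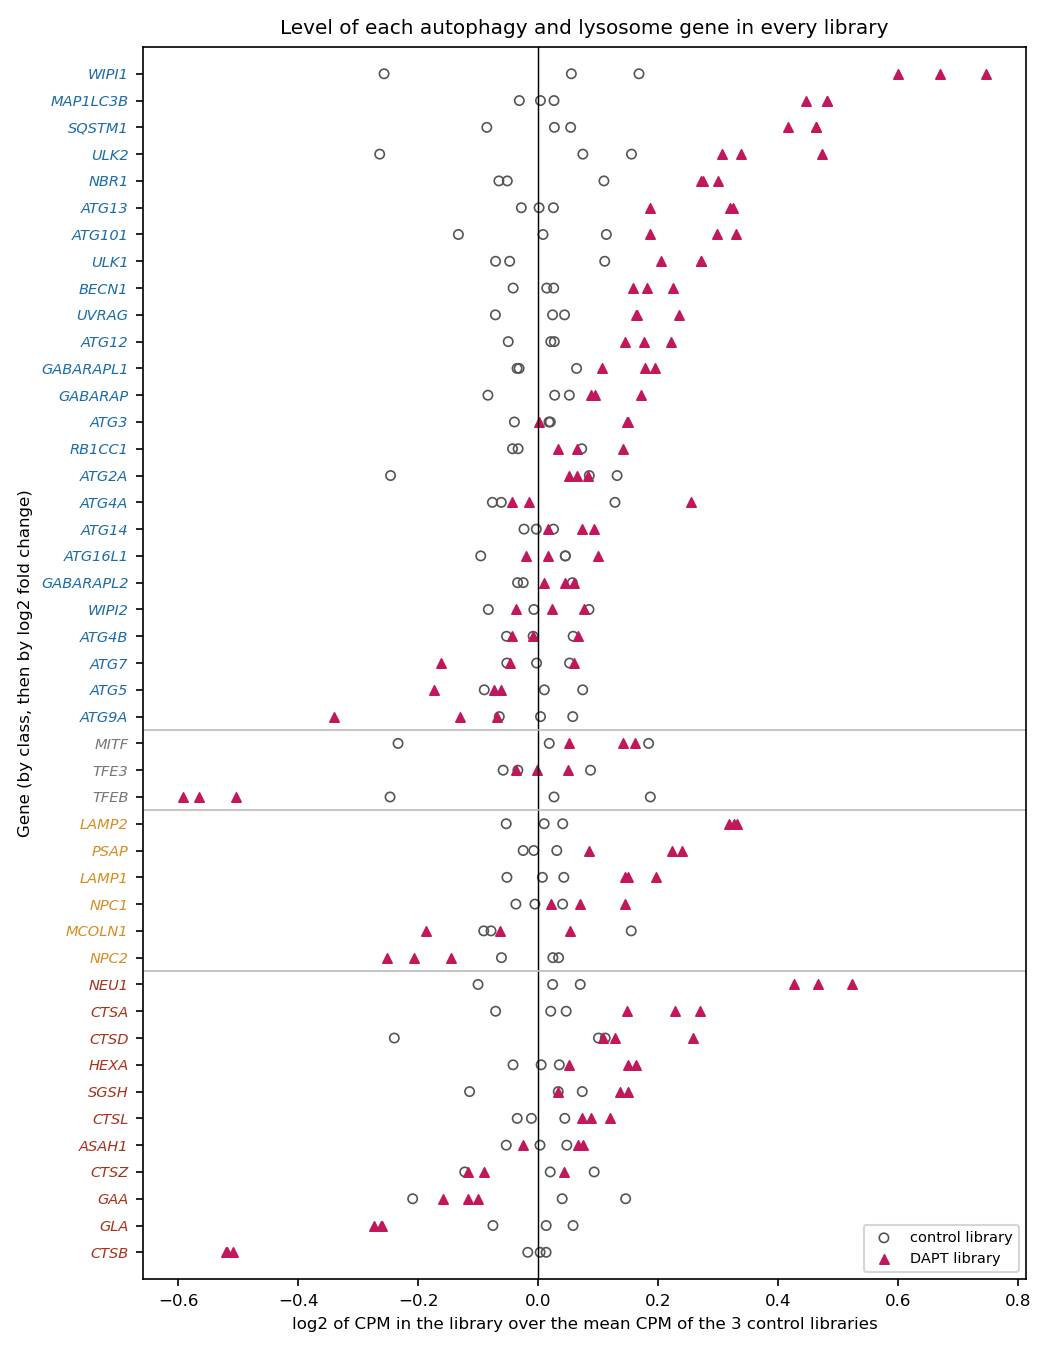
Level of each of the 45 genes in each library, as the log2 of its CPM over the mean CPM of the 3 control libraries (horizontal axis). Open circles are the 3 control libraries and filled triangles the 3 DAPT libraries, genes are ordered by class (label colours: blue for autophagy core, grey for transcription factors, orange for other lysosomal proteins, red for lysosomal enzymes) and then by log2 fold change. The DAPT triangles lie right of all control circles in 20 genes and left of them in 5.

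The calls in the autophagy core went in 1 direction. Of the 25 core genes, 12 were higher (48%, against 17.2% of all tested genes) and 0 were lower (against 18.0%) with DAPT. Only *ATG9A* was lower at an unadjusted p under 0.05 with edgeR, and DESeq2 had 0 core genes lower with or without adjustment, while limma-voom had 1 without adjustment and 0 with it. Of the 17 lysosomal genes, 5 were higher and 3 were lower, and for the 11 enzymes alone it was 2 and 2. The median log2 fold change was 0.12 for the core, 0.09 for the lysosomal genes and 0.01 for all tested genes, and 22 of 25 core genes and 11 of 17 lysosomal genes were above 0, as were 51.3% of all tested genes. Whether the lists differ was not tested. Without control replicate 3, 7 core genes were called higher, where the share of all tested genes called higher was 12.4% instead of 17.2%, and without control replicate 1 the lysosomal median was 0.06, with 4 lysosomal genes lower.

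Summed over the 25 core genes, the level was 1813, 1833 and 1799 CPM in the control libraries and 2078, 2081 and 2080.1 CPM in the DAPT libraries, so the groups did not overlap. Abundant genes weigh most in this sum, such as *SQSTM1*, at a mean of 259 CPM in the controls and 354 CPM with DAPT. Of the 25 genes, 13 were not called. The sum over the 11 lysosomal enzymes was 2342, 2575 and 2569 CPM in the controls and 2459.8, 2373 and 2345 CPM with DAPT. Here the groups overlapped, but only through control replicate 1 (2342 CPM). Without it, all DAPT libraries were below the controls in the enzyme sum. For the 6 other lysosomal proteins the sums were 1969, 2026 and 2007 CPM against 2179, 2295 and 2303 CPM, again without overlap. Over all 17 lysosomal genes the sums were 4311, 4601 and 4576 CPM against 4639, 4668 and 4648 CPM, also without overlap. Within each library, the core sum amounted to 42.0%, 39.8% and 39.3% of this lysosomal sum in the controls. With DAPT it amounted to 44.8%, 44.6% and 44.8%. The lysosomal sum includes *CTSB*, at 684 to 698 CPM in the controls and 483 to 486 CPM with DAPT. The shares were not computed without that gene, so their separation between the groups is not shown to hold without it.

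**Figure D2:**
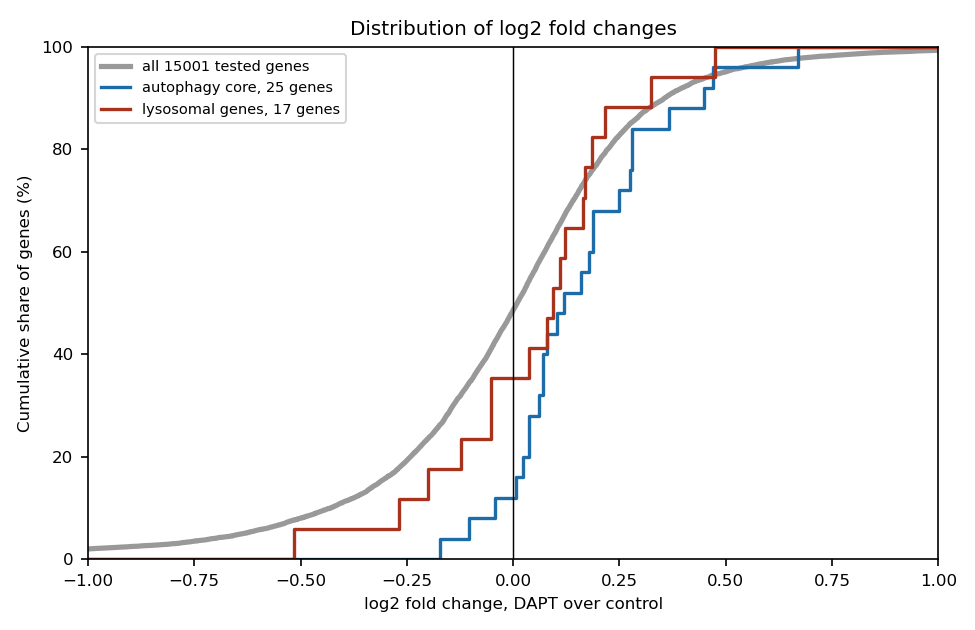
Cumulative share of genes (vertical axis, %) against log2 fold change of DAPT over control (horizontal axis, shown from -1 to 1) for 25 autophagy core genes (blue), 17 lysosomal genes (red) and all 15001 tested genes (grey). The medians are 0.12, 0.09 and 0.01, and 3 of the 25 core genes lie below 0.

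Cargo receptors link ubiquitin-marked proteins to the growing autophagosome. *SQSTM1* (p62; ENSG00000161011, chromosome 5 of GRCh38, 179806398 to 179838078), the best known of them, was at 244, 269 and 264 CPM in the control libraries and at 346, 357 and 357 CPM in the DAPT libraries. Every DAPT library was above every control library, and the mean rose from 259 ± 13.1 to 354 ± 6.57 CPM (SD, n = 3 each). The log2 fold change was 0.45 (standard error, SE, 0.05, edgeR adjusted p = 3.66e-07). *NBR1*, a second receptor with a similar domain order, was at 175, 157 and 155 CPM in the controls and 196, 196 and 199.7 CPM with DAPT. It rose as well, by a log2 fold change of 0.28 (SE 0.05, edgeR adjusted p = 2.85e-04).

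Proteins of the ATG8 family coat the autophagosome and hold the receptors. *MAP1LC3B* (ENSG00000140941, chromosome 16, 87383953 to 87404779), which encodes LC3B, the usual marker of autophagosomes, was at 58.5, 57.6 and 56.2 CPM in the controls and 80.3, 80.2 and 78.4 CPM with DAPT. The groups were far apart relative to their spread, and the log2 fold change was 0.47 (SE 0.05, edgeR adjusted p = 8.12e-07). Its relative *GABARAPL1* was at 163, 152 and 153 CPM against 168, 179 and 177 CPM, a smaller step with a log2 fold change of 0.16 (adjusted p = 0.0183, edgeR). That call was lost, with adjusted p-values from edgeR of 0.0944, 0.0942, 0.0822 and 0.0653, when control replicate 2, control replicate 3, DAPT replicate 2 or DAPT replicate 3 was left out. *GABARAPL2* overlapped between the groups (55.2 to 58.8 CPM in controls, 56.9 to 58.9 CPM with DAPT), and its interval ran from -0.09 to 0.16 on the log2 scale. *GABARAP* was at only 6.86 to 7.54 CPM in controls and 7.73 to 8.19 CPM with DAPT and did not pass (log2 fold change 0.12, adjusted p = 0.484, edgeR). Another annotated gene covers 35.4% of the exonic bases of *GABARAP* on the same strand, and by the counting defaults reads there were not counted, so its level is understated. *MAP1LC3B* and *GABARAPL1* have near-identical copies elsewhere in the genome, and reads that map to several places were not counted, so their levels are uncertain too.

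The ULK complex receives signals of nutrient state and starts the autophagosome. In it 4 of 5 genes were called higher (80%, against 17.2% of all tested genes). The kinase gene *ULK1* (chromosome 12, 131894622 to 131923150) was at 94.3, 107 and 95.8 CPM in the controls and 114, 119 and 119 CPM with DAPT, without overlap (log2 fold change 0.25, SE 0.06, edgeR adjusted p = 0.00146). *ATG13*, its regulatory partner, was at 103, 106 and 107 CPM against 132, 120.1 and 132 CPM (log2 fold change 0.28, adjusted p = 3e-04, edgeR). *ATG101*, which binds and stabilises ATG13, was at 27.0, 32.0 and 29.7 CPM against 33.6, 37.1 and 36.3 CPM, and control replicate 1 was the lowest library (0.27, adjusted p = 0.00998, edgeR). The second kinase gene *ULK2* was the lowest of the 45 genes per length and went from 9.22, 9.75 and 7.29 CPM to 12.1, 10.8 and 11.1 CPM (0.37, SE 0.12, edgeR adjusted p = 0.0212). Its call rested on few reads and was lost without control replicate 3 (adjusted p = 0.133, edgeR) or DAPT replicate 1 (adjusted p = 0.0888, edgeR), and in DESeq2 (adjusted p = 0.0746). *RB1CC1*, which encodes the scaffold FIP200, overlapped between the groups at 137 to 148 CPM in controls and 144 to 155 CPM with DAPT.

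The lipid kinase complex that acts next was represented by 3 genes. *BECN1* was at 89.1, 89.8 and 85.7 CPM in the controls and 103, 100.03 and 98.4 CPM with DAPT (log2 fold change 0.19, SE 0.05, edgeR adjusted p = 0.00723). All DAPT libraries were higher, although the call was narrowly lost without control replicate 3 (adjusted p = 0.0503, edgeR). *UVRAG*, a BECN1 partner that also serves endosome maturation, was at 51.3, 47.4 and 50.6 CPM against 55.7, 58.6 and 55.8 CPM (0.19, adjusted p = 0.0241, edgeR). It lost its call in 4 of the 6 fits that left out a library, those without control replicate 2 (adjusted p = 0.138), control replicate 3 (0.0581), DAPT replicate 2 (0.112) or DAPT replicate 3 (0.0537, edgeR in each), and in DESeq2 (0.0645). *ATG14*, which brings the complex to the endoplasmic reticulum, was at 45.1 to 46.7 CPM and 46.4 to 48.9 CPM with an interval from -0.07 to 0.19.

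Among the genes that supply and bind the membrane, *WIPI1* had the largest log2 fold change of all 45. It encodes a protein that reads the lipid mark and was at 9.40, 7.01 and 8.70 CPM in the controls and 13.3, 14.0 and 12.7 CPM with DAPT. The means were 8.37 ± 1.23 and 13.3 ± 0.682 CPM (SD, n = 3 each), with no overlap, and the log2 fold change was 0.67 (SE 0.12, edgeR adjusted p = 1.32e-04). *WIPI2*, which recruits the conjugation enzymes to the same lipid, overlapped at 139 to 156 CPM in controls and 144 to 156 CPM with DAPT, with an interval from -0.09 to 0.13. *ATG2A*, a lipid transfer protein gene, was at 31.1, 40.4 and 39.1 CPM against 38.2, 38.5 and 39.0 CPM, and its sign turned without control replicate 1 (0.07 with all libraries, -0.04 without). *ATG9A*, the lipid scramblase gene, had a log2 fold change of -0.17 (adjusted p = 0.102, edgeR), which among the alternatives passed only without DAPT replicate 1 (-0.23, adjusted p = 0.0466, edgeR). A second gene covers 38.8% of its exonic bases on the same strand.

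The conjugation enzymes moved least. Of 7 genes, 1 was called higher (14.3%, near the 17.2% of all tested genes). This was *ATG12*, a ubiquitin-like protein gene, from 51.6, 51.4 and 49.0 CPM to 56.0, 57.3 and 59.1 CPM (log2 fold change 0.18, adjusted p = 0.0271, edgeR). The libraries did not overlap, but the call was lost without control replicate 2 (adjusted p = 0.0639), control replicate 3 (0.127), DAPT replicate 2 (0.0751) or DAPT replicate 3 (0.111), each from edgeR, as well as in DESeq2 (0.0737) and in edgeR with no filter on low counts (0.0504). The E1-like *ATG7*, the E2-like *ATG3*, the proteases *ATG4A* and *ATG4B*, and *ATG5* and *ATG16L1*, which join ATG12 in the ligase, had log2 fold changes between -0.10 and 0.10, and none of the 6 passed. Their groups overlapped in every case. For *ATG4B* the interval was -0.12 to 0.13, and for *ATG7* it was -0.22 to 0.14.

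**Figure D3:**
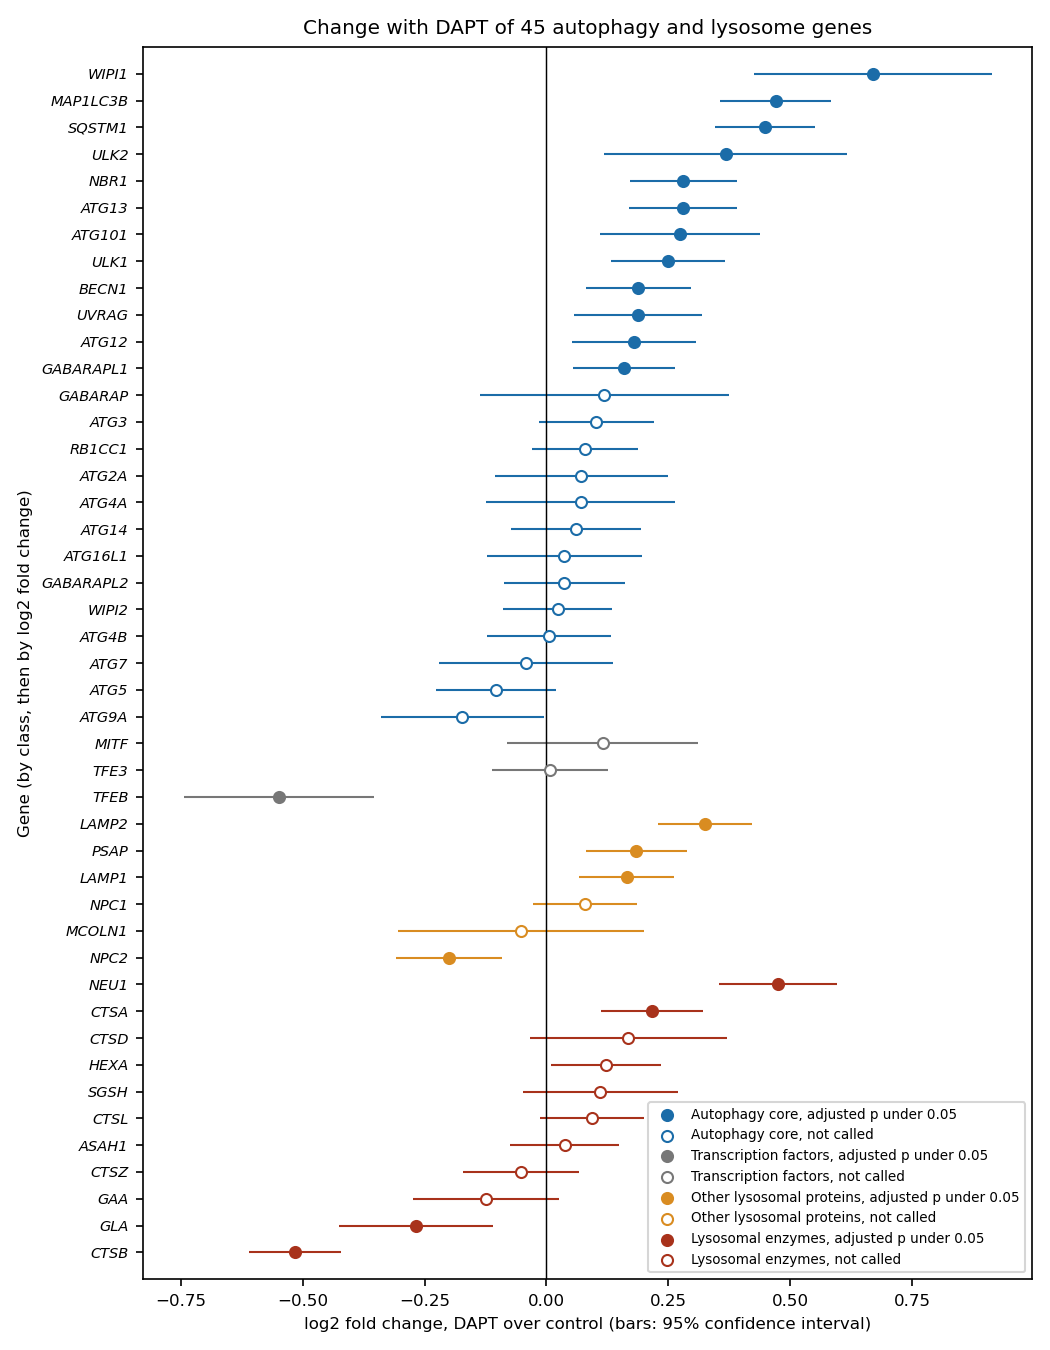
Log2 fold change of DAPT over control for the 45 genes (horizontal axis), with 95% confidence intervals that are not adjusted for the number of genes. Filled symbols mark an adjusted p under 0.05 in edgeR's test, open symbols the rest, and colours give the class. The 12 called core genes are all right of 0, while the called lysosomal enzymes lie on both sides, from -0.52 (*CTSB*) to 0.47 (*NEU1*).

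Of the 3 transcription factors of lysosomal genes, *TFEB* alone was called. *TFEB* (ENSG00000112561, chromosome 6, 41683978 to 41736259) was at 27.96, 37.8 and 33.8 CPM in the controls and 22.0, 23.4 and 22.4 CPM with DAPT. All DAPT libraries were lower, and the 3 controls were more spread than the 3 DAPT libraries (33.2 ± 4.93 and 22.6 ± 0.708 CPM, SD, n = 3 each). The log2 fold change was -0.55 (SE 0.09, edgeR adjusted p = 1.25e-04) and -0.66 without control replicate 1 (adjusted p = 3.03e-07, edgeR). *TFE3* was at 69.9 to 77.4 CPM in controls and 71.0 to 75.4 CPM with DAPT, with an interval from -0.11 to 0.13. *MITF* was at 16.97 to 22.7 CPM and 20.7 to 22.3 CPM (log2 fold change 0.12, adjusted p = 0.366, edgeR). These are transcript levels, and TFEB activity, which depends on phosphorylation and on entry into the nucleus, was not measured.

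These factors bind the CLEAR element, whose core is the E-box CACGTG. RefSeq promoter windows of 300 bases (250 before and 50 after the start site) were matched for 37 of the 45 genes, in 47 windows. The 8 genes without a window were the called *CTSB*, *LAMP2*, *PSAP* and *UVRAG* and, not called, *ASAH1*, *HEXA*, *RB1CC1* and *SGSH*. The E-box CACGTG, searched on both strands, was in 17.02% of these windows and in 7.26% of all 35116 windows of the same length. The longer core TCACGTGA, which contains the E-box, was in 10.6% and in 0.980%. By gene it was found in 4 of 11 matched lysosomal genes and in 1 of 23 matched core genes. These 5 stretches are shown because they hold the longer core, from 200 bases before to 20 bases after the RefSeq start site (GRCh38.p14). They read 5′ to 3′ on the gene's strand, in lower case with E-boxes and the longer core in capitals.
*LAMP1*, chr13:113297039-113297258, plus strand: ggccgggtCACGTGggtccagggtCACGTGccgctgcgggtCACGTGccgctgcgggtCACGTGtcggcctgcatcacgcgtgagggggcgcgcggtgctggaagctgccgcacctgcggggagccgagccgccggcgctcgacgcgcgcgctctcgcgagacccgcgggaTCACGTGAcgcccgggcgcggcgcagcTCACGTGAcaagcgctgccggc
*MCOLN1*, chr19:7522424-7522643, plus strand: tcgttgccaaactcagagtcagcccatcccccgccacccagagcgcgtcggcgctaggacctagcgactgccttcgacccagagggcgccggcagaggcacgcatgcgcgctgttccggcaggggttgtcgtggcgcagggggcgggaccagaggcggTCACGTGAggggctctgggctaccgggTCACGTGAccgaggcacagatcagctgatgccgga
*CTSA*, chr20:45891135-45891354, plus strand: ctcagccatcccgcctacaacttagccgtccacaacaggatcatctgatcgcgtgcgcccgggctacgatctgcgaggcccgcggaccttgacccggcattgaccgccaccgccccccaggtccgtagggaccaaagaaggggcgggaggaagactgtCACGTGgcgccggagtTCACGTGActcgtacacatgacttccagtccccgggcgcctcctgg
*GAA*, chr17:80101381-80101600, plus strand: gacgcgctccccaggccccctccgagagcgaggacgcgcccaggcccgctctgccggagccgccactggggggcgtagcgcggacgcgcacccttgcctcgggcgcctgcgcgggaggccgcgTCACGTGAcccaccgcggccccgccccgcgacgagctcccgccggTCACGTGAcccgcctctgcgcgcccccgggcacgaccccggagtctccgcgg
*ATG3*, chr3:112561943-112562162, minus strand: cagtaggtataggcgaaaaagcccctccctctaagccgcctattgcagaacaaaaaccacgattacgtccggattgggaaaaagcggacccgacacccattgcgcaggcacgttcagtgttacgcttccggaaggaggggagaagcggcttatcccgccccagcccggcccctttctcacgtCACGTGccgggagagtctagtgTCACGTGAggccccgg

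*LAMP1* held 6 E-boxes, 2 of them in the longer core, and *MCOLN1* and *GAA* held the longer core 2 times each. Of these 5 genes, *LAMP1* and *CTSA* were called higher with DAPT, and *MCOLN1*, *GAA* and *ATG3* were not called, so genes that share the core did not share a call. Among 8 genes with any E-box, 3 were higher (*LAMP1*, *CTSA* and *NEU1*) and 5 were not called, while of all 37 matched genes 14 were higher, 3 were lower and 20 were not called. The share called higher was thus near that of the matched genes as a whole. Other letters searched on both strands were TGATGCAA, the core of the C/EBP-ATF response element (in 0 member windows and 0.866% of all), TGACNNNGC, that of the antioxidant response element (21.3% and 13.3%), and GTGGGAA, a site of the Notch partner RBPJ (4.26% and 6.25%). The last was in the windows of *ATG14* and *NBR1*. A match describes the letters and does not show that a factor binds there.

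**Figure D4:**
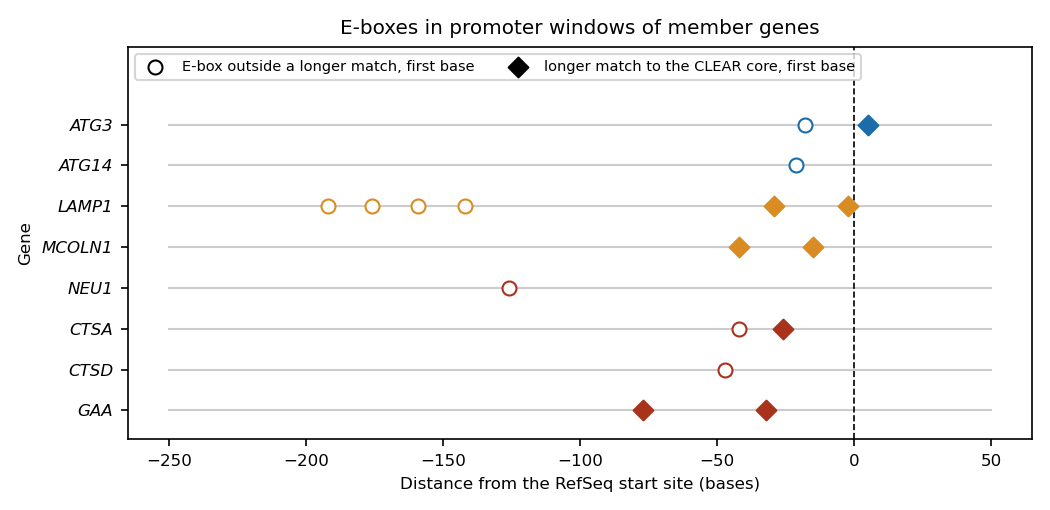
Positions of E-boxes in the promoter windows of the 8 genes that hold any, as the distance of the first base from the RefSeq start site (horizontal axis, bases; grey lines span the window of 250 bases before and 50 after). Diamonds mark the longer CLEAR core and open circles other E-boxes, coloured by class as in the plot of fold changes. The longer cores begin between 77 bases before the start and 5 bases after it.

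Of the 6 membrane proteins of the lysosome and proteins that serve its enzymes, 3 were higher, 1 was lower and 2 were not called. The shares were 50% higher and 16.7% lower, against 17.2% and 18.0% of all tested genes. *LAMP2* (ENSG00000005893, chromosome X, 120427827 to 120469365), a main protein of the lysosomal membrane, was at 364, 356 and 341 CPM in the controls and 444, 445 and 441 CPM with DAPT. The DAPT libraries were close together and all higher, with a log2 fold change of 0.32 (SE 0.05, edgeR adjusted p = 1.32e-05). *LAMP1*, the other main membrane protein, rose less, from 483, 503 and 516 CPM to 555, 554 and 574 CPM (0.16, adjusted p = 0.00943, edgeR), and its call was lost without DAPT replicate 3 (adjusted p = 0.0572, edgeR). *PSAP*, which encodes the precursor of the saposins that present lipids to lysosomal enzymes, was at 856, 889.9 and 867 CPM against 924, 1028 and 1017 CPM (0.18, adjusted p = 0.00659, edgeR). Without DAPT replicate 2 its adjusted p was 0.0511 (edgeR). *NPC2*, a soluble cholesterol carrier, fell from 129, 137 and 138 CPM to 113, 122 and 117 CPM without overlap (-0.20, SE 0.05, edgeR adjusted p = 0.00474). Its membrane partner *NPC1* was not called, at 128 to 135 CPM in controls and 133 to 145 CPM with DAPT. The calcium channel gene *MCOLN1*, at 8.52 to 10.1 CPM and 7.97 to 9.42 CPM, was too low for a narrow estimate, and its interval ran from -0.30 to 0.20.

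Cathepsins, the proteases of the lysosome, split. *CTSB* (ENSG00000164733), a cysteine protease gene, was at 684, 698 and 694 CPM in the controls and 486, 483 and 483 CPM with DAPT. Its mean fell from 692 ± 7.46 to 484 ± 2.08 CPM (SD, n = 3 each), and no library came near the other group. The log2 fold change of -0.52 had the smallest standard error (0.05) and the smallest adjusted p of the 45 genes (1.08e-08, edgeR). *CTSA*, a carboxypeptidase gene whose protein also protects NEU1 and β-galactosidase, went the other way, from 338, 367 and 360.4 CPM to 428, 416 and 393 CPM (0.22, adjusted p = 0.00188, edgeR). Within each library the ratio of *CTSB* to *CTSA* in CPM was 2.02, 1.90 and 1.92 in the controls and 1.14, 1.16 and 1.23 with DAPT. *CTSL* was at 91.5 to 96.7 CPM and 98.6 to 102 CPM, without overlap but not called (0.09, adjusted p = 0.167, edgeR). *CTSZ* overlapped between the groups and had an interval from -0.17 to 0.07. *CTSD*, the main aspartic protease gene, was at 309 CPM in control replicate 1 and at 391 to 437 CPM in the other 5 libraries. Its log2 fold change of 0.17 dropped to 0.06 without that library (adjusted p = 0.181 and 0.327, edgeR), it passed with no filter on low counts (0.00883), and another gene covers 42.2% of its exonic bases on the same strand.

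The other hydrolases cut sugars and lipids. *NEU1* (ENSG00000204386, chromosome 6, 31857659 to 31862906), which encodes the lysosomal sialidase, was at 57.0, 62.2 and 64.2 CPM in the controls and 84.5, 87.8 and 82.1 CPM with DAPT. This was the largest rise among the lysosomal genes, with a log2 fold change of 0.47 (SE 0.06, edgeR adjusted p = 1.61e-06), and *CTSA*, whose protein binds NEU1, rose in the same libraries as given above. *GLA*, the gene of α-galactosidase A, fell from 27.7, 26.9 and 25.3 CPM to 22.0, 22.2 and 22.2 CPM (-0.27, SE 0.08, edgeR adjusted p = 0.00890). *GAA*, which encodes the enzyme that digests glycogen, was at 162, 207 and 192 CPM against 167, 174 and 172 CPM. Control replicate 1 was the lowest of all libraries, and only without it was *GAA* called, as lower (-0.22, adjusted p = 8.12e-04, against -0.12 and 0.192 with all libraries, edgeR). The part of the fibroblast marker RNA of control replicate 1 in these values of *CTSD* and *GAA* was not tested. *HEXA*, a subunit of hexosaminidase, reached 0.12 (adjusted p = 0.0876, edgeR) without overlap between the groups and passed without DAPT replicate 1 (edgeR adjusted p = 0.0461) and with library size alone as the scaling (0.019), not in the other alternatives. *SGSH* (heparan sulfate degradation) and *ASAH1* (acid ceramidase) overlapped, with intervals of -0.05 to 0.27 and -0.07 to 0.15.

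Divided by exonic length, the levels in the controls spanned from 0.887 CPM per kb for *ULK2* to 273 CPM per kb for *PSAP*. The 5 highest were *PSAP*, *CTSZ* (253), *CTSD* (119), *CTSB* (94.6) and *LAMP1* (87.2 CPM per kb), all lysosomal. The median was 9.24 CPM per kb for the core, 35.7 for the enzymes, 56.5 for the other lysosomal proteins and 5.87 for the 3 factors. *GABARAPL1* (38.5) and *SQSTM1* (34.4 CPM per kb) were the highest core genes. In this order, the control libraries of neighbours overlapped in 29 of 44 pairs, among them *PSAP* and *CTSZ*, so only the coarse order holds. With DAPT, *CTSB* was at 66.1 CPM per kb, below *LAMP1* (97.7), *LAMP2* (80.2) and *CTSA* (70.4 CPM per kb), whereas in the controls it was above all 3. The length is that of all annotated exons of a gene, so genes with many long annotated transcripts are understated.

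For the 24 genes that were not called, the 95% intervals reached at most from -0.34 (*ATG9A*) to 0.37 (*GABARAP*) on the log2 scale, and their median reach to either side was 0.13. A log2 change of 1 in either direction thus lay outside the interval of every gene not called. Of the 21 called genes, 14 kept an adjusted p under 0.05 in each of the 6 edgeR fits without a library, and the same number in all 13 alternatives to the main analysis. These were *SQSTM1*, *NBR1*, *MAP1LC3B*, *ATG13*, *ATG101*, *ULK1*, *WIPI1*, *TFEB*, *LAMP2*, *CTSA*, *CTSB*, *GLA*, *NEU1* and *NPC2*.

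Genes of the same pathways outside the 45 were counted from lists written from general knowledge. Of 26 tested genes of other autophagy machinery, 8 were higher and 2 were lower with DAPT (edgeR, adjusted p under 0.05). These were 30.8% higher and 7.69% lower, against 17.2% and 18.0% of all tested genes. In either direction 38.5% were called, against 35.2% of all tested genes. Among called genes the largest rises in log2 fold change were those of *STX17* (0.38), the autophagosomal SNARE, *WDR45* (0.36), a lipid-binding relative of WIPI1, and *ATG2B* (0.29). The genes lower were *VMP1* (-0.48), which acts at the start of the autophagosome, and *PIK3R4* (-0.25), a subunit of the lipid kinase. Of 16 other autophagy receptors, 68.8% were called, 43.8% as higher and 25% as lower, against the same shares of all tested genes. The 7 higher were led by *CCPG1* (0.51) and *RETREG1* (0.46), receptors for the endoplasmic reticulum, and *CALCOCO1* (0.32). A further 4 receptors were lower, among them *BNIP3* (-0.34), *FKBP8* (-0.21) and *NCOA4* (-0.16), which serve mitochondria and ferritin. Another gene covers 38.9% of the exonic bases of *CCPG1* on the same strand. Without control replicate 1 these lists had 10 higher and 2 lower, and 8 higher and 4 lower.

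Of 38 other lysosomal hydrolases, 13 were higher and 5 were lower, or 34.2% and 13.2%, against 17.2% and 18.0% of all tested genes. *SMPD1*, the gene of acid sphingomyelinase, was at 48.6, 55.9 and 53.3 CPM in the controls and 86.8, 77.5 and 88.3 CPM with DAPT (log2 fold change 0.68, adjusted p = 4.26e-08, edgeR). *HYAL1* (0.51) and *IDUA* (0.49), which degrade glycosaminoglycans, followed. The cysteine protease gene *CTSC* fell as *CTSB* did, from 239.9, 236 and 236 CPM to 137, 139 and 140 CPM (-0.77, adjusted p = 3.21e-11, edgeR). *CTSS* (-0.43) and the activator gene *GM2A* (-0.36) were lower too. The cysteine cathepsins did not move together. *CTSO* was called higher (0.33, adjusted p = 0.0179, edgeR), and *CTSF*, *CTSH*, *CTSK* and *CTSV* were not called. Without control replicate 1, 13 genes of this list were higher and 7 were lower.

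Of 24 genes for lysosomal membrane proteins and sorting, 7 were higher and 3 were lower, or 29.2% and 12.5%, against the same 17.2% and 18.0%. *LAMP3*, a relative of LAMP1 that is inducible in many cells, was at 51.5, 48.5 and 42.2 CPM in the controls and 134, 148 and 120.2 CPM with DAPT, a log2 fold change of 1.49 (adjusted p = 2.68e-09, edgeR). It was the only gene of the pathway lists called with at least a 2-fold rise. *SORT1* (0.52), a sorting receptor, and *MFSD8* (0.42) also rose. *LAPTM5* was lower, on 17 to 31 reads per control library and 4 to 7 reads per DAPT library (-2.15), as were *LAPTM4B* (-0.56) and *GNPTAB* (-0.22), whose enzyme tags hydrolases for the lysosome. The V-ATPase, the proton pump of the lysosome, had 4 of 15 tested subunit genes higher, 0 lower and 11 not called. The shares were 26.7% higher and 0% lower, against 17.2% and 18.0% of all tested genes. In either direction, 35.2% of all tested genes were called. The called genes with the largest rises were *ATP6V0A1* (0.31), *ATP6AP1* (0.23) and *ATP6AP2* (0.20). Without control replicate 1 it had 4 higher and 1 lower.

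Of 25 tested genes that sense nutrients at the lysosome, 5 were higher and 4 were lower, close to the shares among all tested genes. *PRKAB1* (0.36), a subunit of AMP-activated kinase, *TSC2* (0.33) and *FNIP1* (0.23) rose the most among called genes. *FNIP2* (-0.52), *RRAGA* (-0.26) and *LAMTOR5* (-0.25) fell the most among them, and the last 2 belong to the complex that holds mTORC1 at the lysosome. Without control replicate 1 the counts were 7 higher and 4 lower.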

How the data were processed

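The paper's methods and the submitters' processing notes name FastQC, Trim Galore and HISAT2 on GRCh38 for single-end reads from a directional kit. The notes also name HTSeq, whereas the file headers name featureCounts. Per the file headers, the authors counted reads over the exons of each Ensembl gene (release 96 in the annotation's name) on 1 strand with featureCounts 1.6.3 and deposited raw read counts, without normalization. By the defaults of that tool, reads that map to several places or overlap several genes are not counted. Symbols were matched by identifier for 58472 of 58884 genes, and coordinates are those of the count tables.

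Counts were tested in R 4.3.3 with edgeR 4.0.16 (filter on low counts by group with a minimum count of 10, TMM normalization, robust quasi-likelihood fit, Benjamini-Hochberg adjustment over 15001 genes). Standard errors and 95% intervals were derived from the test statistic. CPM are TMM-normalized. The 3 counts taken as a floor cover counting error only. The test was also tested on simulated data.

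The alternatives were DESeq2 1.42.0, limma-voom (limma 3.58.1), RLE normalization, library size alone, no filter, at least 10 counts in every library, the replicate number as a block, and each library left out. All 45 genes, the 3 called genes of largest absolute log2 fold change per direction of each pathway list, 5 Notch targets and the cell type markers were named by rule, and *LAMP3* and *SMPD1* fall under it. *CTSO*, *CTSF*, *CTSH*, *CTSK* and *CTSV* were named outside it, after their values were seen. The genes and lists were chosen with earlier results of these data known. Sequences are from RefSeq (GRCh38.p14).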

Additional observations from a re-analysis of the deposited data

How the results depend on the processing

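Scaling by library size alone moved the median of all tested genes from 0.01 to 0.06 and called 20 of the 45 genes higher and 4 lower, where 23.0% and 14.4% of all tested genes were called. The medians under that scaling were 0.15 for all 45 genes, 0.17 for the autophagy core and 0.14 for the lysosomal genes. Of the core genes 9 to 13 were higher under the 7 alternatives that kept all libraries, and DESeq2 called 9 core genes and 14 of the 45 genes higher, where 12.01% of all tested genes were called higher by it.

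With each library left out in turn, 12.4% to 18.0% of all tested genes were higher, 12 to 17 of the 45 genes were higher and 4 to 5 lower, 7 to 12 core genes were higher and 0 to 1 lower, and 4 to 6 lysosomal genes were higher and 3 to 4 lower. The core gene called lower was *ATG9A*, without DAPT replicate 1. The medians then lay between 0.09 and 0.12 for all 45 genes, 0.10 and 0.15 for the core and 0.062 and 0.11 for the lysosomal genes. Fits without a library test fewer samples.

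The sign turned in 8 genes, none of them called in the fit of all libraries or in the fit where it turned. With library size alone *ATG7* was at 0.0044. In fits without a library the log2 fold changes ranged from -0.042 to 0.14 for *ATG2A*, -0.0095 to 0.064 for *ATG16L1*, -0.017 to 0.064 for *WIPI2*, -0.019 to 0.046 for *TFE3*, -0.023 to 0.031 for *ATG4B*, -0.12 to 0.019 for *MCOLN1*, -0.028 to 0.14 for *ATG4A* and -0.10 to 0.012 for *ATG7*.

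With the replicate number as a block, 17 of the 45 genes were higher and 4 lower, 12 core genes higher, and the medians were 0.10 for all 45 genes, 0.12 for the core and 0.09 for the lysosomal genes. The block changed no call. After removal of the group means, libraries with the same number correlated at 0.0173, 0.0252 and 0.0038, and those with unlike numbers at -0.0368 to 0.0151. Control replicates 1 and 2 correlated best with the DAPT library of the same number, and control replicate 3 with DAPT replicate 1 (0.0151). No label says that a number marks a shared culture or day, so whether the libraries are paired cannot be told. Depth limits *ULK2*, *GABARAP*, *MCOLN1* and *WIPI1*, whose standard errors were 0.12 each.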
